A study of Mus musculus with 33 samples.

Results

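The oligoadenylate synthetases are interferon-induced proteins, and their transcripts were followed in the kidneys of lupus-prone BWF1 mice given an adenovirus that expresses interferon-alpha (Adv-IFNα). The members were Oas1b, Oas1g, Oas2, Oas3, Oasl1 and Oasl2, 6 of the 17097 genes named on the arrays. A member was taken through any probe set annotated with its symbol alone, the brightest standing for the gene. Each member turned out to have exactly 1 such probe set, so every value below is the signal of a single probe set, in log2 units after robust multi-array average (RMA) normalization. All mice were of the BWF1 cross (NZB X NZW F1). Each of the 33 arrays was taken as 1 kidney of 1 mouse, since the array titles number replicates and name no animal. The study describes 2 independent longitudinal experiments, and the titles do not say which of them an array came from. The untreated group held 3 kidneys, and 5 kidneys each were collected 1, 2, 3, 5, 7 and 9 weeks after Adv-IFNα. By the study's methods the treated mice were 9-week-old females injected intravenously, although another passage of the study gives a different age. The study calls its controls age-matched, but the labels give the untreated kidneys neither an age nor a week, and no group received an empty virus. Vector and interferon-alpha cannot be told apart in these groups, and a single untreated group can match the age of only part of a course of 9 weeks.

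Oligoadenylate synthetases bind double-stranded RNA, a sign of viral infection, and join ATP into short 2′-5′-linked oligoadenylates (2-5A). The 2-5A serve as a signal in antiviral defence, and phosphodiesterases such as Pde12 degrade them again. Type I interferon acts through the receptor chains Ifnar1 and Ifnar2 on a transcription complex that includes Stat2 and Irf9 and binds interferon-stimulated response elements in the promoters of its target genes, the synthetases among them. In lupus, high blood levels of such interferon-induced transcripts are a known feature.

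All 6 members lie on chromosome 5, Oasl1 and Oasl2 as neighbours and Oas1b, Oas1g, Oas2 and Oas3 within the cluster of Oas genes. Promoter windows of 4 of the 6 members (Oas1g, Oas3, Oasl1 and Oasl2) were matched in a RefSeq table of build GRCm38.p6, and those of Oas1b and Oas2 were not. Each window held 300 bases, 250 of them before the transcript start. It was searched on both strands for AANNGAAA, the core that interferon regulatory factors bind, and for a longer form of the response element, in which GA directly precedes that core. The sequences below are shown because interferon is known to act on this family through elements of this kind. They run 5′ to 3′ on the strand of the gene, with matches to either motif in capitals, and stop where the annotated gene begins.
Oas1g: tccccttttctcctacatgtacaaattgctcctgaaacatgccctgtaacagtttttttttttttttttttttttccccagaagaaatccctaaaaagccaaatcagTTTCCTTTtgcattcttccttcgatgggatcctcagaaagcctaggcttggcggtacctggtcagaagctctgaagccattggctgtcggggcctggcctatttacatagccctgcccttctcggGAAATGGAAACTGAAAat
Oas3: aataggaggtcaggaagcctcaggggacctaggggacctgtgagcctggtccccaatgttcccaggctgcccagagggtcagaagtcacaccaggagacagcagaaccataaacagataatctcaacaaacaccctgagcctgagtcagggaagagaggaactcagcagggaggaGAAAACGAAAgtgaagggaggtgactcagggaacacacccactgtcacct
Oasl1: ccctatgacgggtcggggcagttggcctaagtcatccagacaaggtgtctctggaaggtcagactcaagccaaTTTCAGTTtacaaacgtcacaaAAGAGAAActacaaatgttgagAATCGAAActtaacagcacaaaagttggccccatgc
The Oas1g stretch is chr5:120887614-120887863 (minus strand), the Oas3 stretch chr5:120777685-120777909 (minus strand) and the Oasl1 stretch chr5:114922990-114923142 (plus strand). Positions below are counted from the transcript start of the window. Each printed stretch begins at -250, and its last base is -1 in Oas1g, -26 in Oas3 and -98 in Oasl1. In Oas3 and Oasl1 the annotated gene begins before the transcript start of the window. In Oas1g, 2 overlapping matches to the longer form began at positions -18 and -12 from the start, and a match to AANNGAAA lay on the other strand at -143. In Oas3 a single match to the longer form began at -75, and a further AANNGAAA followed the start. Oasl1 held no match to the longer form and 3 matches to AANNGAAA, at -177 (other strand), -155 and -133. The Oasl2 window held neither. Among 32851 windows of the same length, 3.44% held the longer form and 23.9% held AANNGAAA. The sequence is that of the reference assembly and not of the NZB or NZW parents, and a match of letters does not show that a factor binds.

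The comparison of each week with untreated kidneys addresses how far, and for how long, the family stood above untreated kidneys after Adv-IFNα. All 6 members rose at every week (limma with Benjamini-Hochberg adjustment over 45037 probe sets, adjusted p below 0.05), and in each of the 30 treated kidneys every member lay above its highest untreated value. Of all probe sets, 1.00% rose at week 1, 0.877% at week 2, 1.07% at week 3, 1.85% at week 5, 9.85% at week 7 and 6.41% at week 9. The share of all probe sets for which every treated array of a week exceeded every untreated array was 3.66% at week 1, 4.11% at week 2, 4.95% at week 3, 4.90% at week 5, 9.06% at week 7 and 5.96% at week 9. The median log2 change of the members was 3.51 at week 1, 2.55 at week 2, 2.86 at week 3, 2.40 at week 5, 3.15 at week 7 and 2.51 at week 9, and the median over all probe sets was -0.03 at week 1 and -0.06 at week 9. These 6 comparisons share the same 3 untreated kidneys. As a measure of RNA quality, the log2 ratio of the 3′ to the 5′ probe set of beta-actin averaged 1.95 ± 0.11 (SD, n = 30) in treated and 1.57 ± 0.16 (SD, n = 3) in untreated kidneys. With this ratio as a covariate all 6 members still rose at every week, the highest adjusted p being 0.00763, for Oas1b at week 5. The ratio ran from 1.68 to 2.19 in treated and from 1.47 to 1.75 in untreated kidneys, with little overlap. This fit therefore cannot tell RNA quality and treatment apart.

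**Figure D1:**
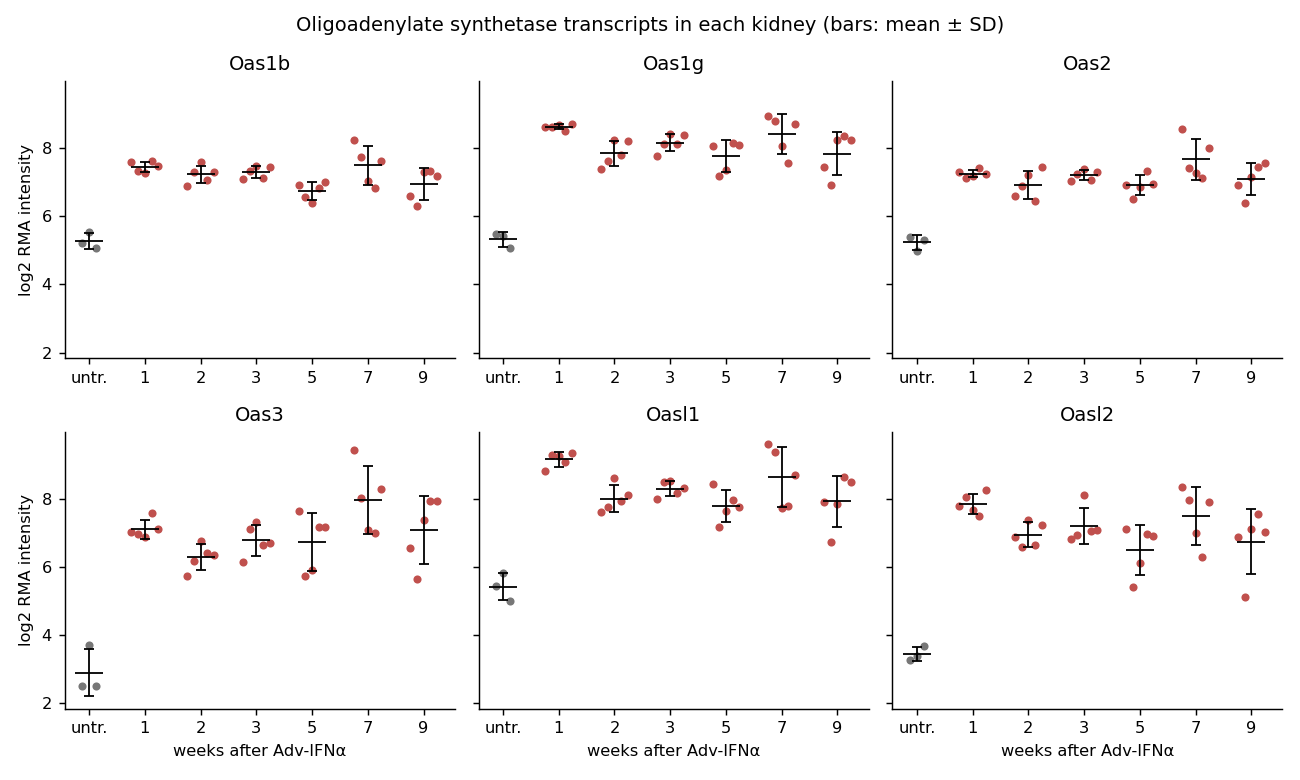
Log2 RMA intensity (vertical axis) of each member in each kidney, for untreated mice (grey, n = 3) and 1, 2, 3, 5, 7 and 9 weeks after Adv-IFNα (red, n = 5 each); points are single kidneys and bars the mean ± SD. All 30 treated kidneys lie above the 3 untreated kidneys in every panel, and levels are not comparable between panels.

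Oas1g belongs to the small Oas1 synthetases, which carry a single synthetase unit. Its log2 values were 8.62, 8.62, 8.67, 8.49 and 8.69 at week 1, against 5.48, 5.42 and 5.05 in untreated kidneys. The 5 week 1 kidneys lay within a narrow band (SD 0.08), and the 2 groups were far from overlapping. The rise was 3.30 (SE 0.28, limma adjusted p = 1.79e-09), or 9.85-fold. At week 9 the values were 7.45, 6.92, 8.22, 8.34 and 8.23, a rise of 2.51 over untreated (adjusted p = 7.21e-07), or 5.71-fold. The Oas1 genes are close copies of each other, and the paralog Oas1a had no probe set of its own here, so signal from Oas1a in the Oas1g probe set cannot be told apart from that of Oas1g. Over 294 aligned bases the promoter windows of Oas1g and Oas1a were 88.8% identical.

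Oas2 is the medium synthetase, with a pair of synthetase units. It stood at 7.31, 7.12, 7.17, 7.40 and 7.23 at week 1, against 5.38, 4.98 and 5.31 in untreated kidneys. The rise of 2.02 (SE 0.25, adjusted p = 2.04e-06), or 4.05-fold, was the smallest of the 6 at that week. At week 7 Oas2 reached 8.56, 7.40, 7.25, 7.12 and 8.0, a rise of 2.44 (adjusted p = 5.37e-08), with replicates 1 and 5 above the other three. At week 9 it stood at 6.91, 6.39, 7.16, 7.45 and 7.56, a rise of 1.87 (adjusted p = 8.88e-06).

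Oas3 is the large synthetase, with 3 such units, and in human cells a main source of 2-5A. Its log2 values were 7.01, 6.97, 6.87, 7.58 and 7.10 at week 1, against 2.50, 3.69 and 2.49 in untreated kidneys. Untreated replicate 2 stood apart from the other untreated kidneys but remained far below all treated ones, the lowest of which was 5.63. The rise was 4.21 (SE 0.47, adjusted p = 2.53e-07), or 18.5-fold, at week 1. At week 7 Oas3 stood at 9.44, 8.02, 7.08, 6.99 and 8.27, a rise of 5.06 (SE 0.47, adjusted p = 1.15e-08), or 33.5-fold. At week 9 its values were 6.56, 5.63, 7.36, 7.93 and 7.94, a rise of 4.19 (adjusted p = 6.92e-07). Because untreated signal was low, where arrays compress changes, these folds are tied to the lowest part of the scale.

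Oas1b is known in mouse as the flavivirus resistance gene, and the reference assembly, made from a strain with a truncated allele, lists it as a transcribed pseudogene. Which allele the BWF1 mice carry was not analysed here. Its values were 7.58, 7.32, 7.28, 7.60 and 7.48 at week 1, against 5.21, 5.53 and 5.08 in untreated kidneys. The groups did not overlap, and the rise was 2.18 (SE 0.23, adjusted p = 8.57e-08), or 4.53-fold. At week 5 it stood at 6.92, 6.57, 6.38, 6.82 and 7.00, a rise of 1.46 (adjusted p = 2.24e-04), the smallest of any member at any week. At week 9 its values were 6.59, 6.29, 7.29, 7.32 and 7.19, with replicates 1 and 2 below the others, and the rise was 1.66 (adjusted p = 1.55e-05).

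Oasl1 and Oasl2 are synthetase-like proteins that carry ubiquitin-like domains. Oasl1 lacks synthetase activity and is known in mouse to hold back translation of Irf7, and Oasl2 is an active synthetase in mouse. Oasl1 had log2 values of 8.81, 9.28, 9.24, 9.06 and 9.35 at week 1, against 5.44, 5.81 and 5.01 in untreated kidneys. The rise was 3.73 (SE 0.35, adjusted p = 1.10e-08), or 13.2-fold. At week 9 the Oasl1 values were 7.91, 6.73, 7.85, 8.64 and 8.48, all below the lowest week 1 kidney, and the rise over untreated was 2.50 (adjusted p = 1.81e-05), or 5.67-fold.

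Oasl2 was measured at 7.78, 8.04, 7.68, 7.49 and 8.25 at week 1, against 3.28, 3.38 and 3.67 in untreated kidneys. Its rise of 4.41 (SE 0.42, adjusted p = 1.14e-08), or 21.2-fold, was the largest of the 6 at week 1, with that of Oas3 at 4.21. Untreated Oasl2, like untreated Oas3, lay below the array medians of 3.97 to 4.10, so its folds too are tied to the lowest part of the scale. At week 3 the values were 6.81, 6.93, 8.11, 7.04 and 7.08, with replicate 3 alone above the rest. At week 9 they were 6.89, 5.11, 7.11, 7.55 and 7.02, with replicate 2 far below the others, and the rise was 3.29 (adjusted p = 4.23e-06), or 9.82-fold.

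**Figure D2:**
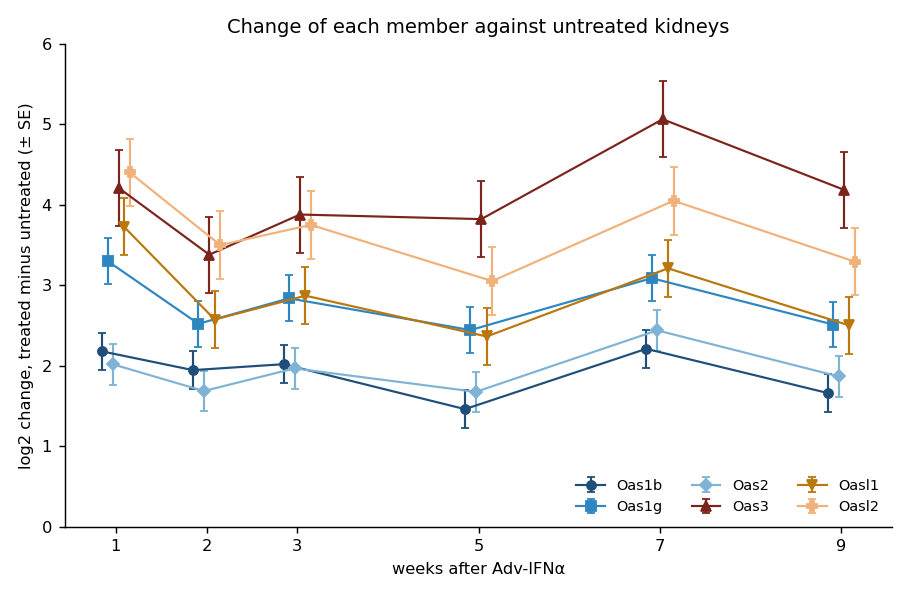
Log2 change of each member against untreated kidneys (vertical axis, ± SE from limma) by week after Adv-IFNα (horizontal axis). The changes run between 1.46 and 5.06, Oas3 and Oasl2 have the highest and Oas1b and Oas2 the lowest at every week shown, and all 6 weeks share the same untreated kidneys.

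Whether the size of the rise over untreated kidneys differed between members was tested pair by pair. For each of the 15 pairs of members the difference between both log2 values of a kidney was compared between week 1 and untreated kidneys (exact two-sided permutation test, smallest possible p = 0.0357). Of the 15 pairs, 9 reached this smallest p, with groups that did not overlap, and 0 passed after adjustment over the 30 pair tests (lowest adjusted p = 0.0630). At this smallest p a pair could pass adjustment only if most of the 30 tests were as low. The 0 therefore does not show that the members rose alike. The difference Oas2 minus Oasl2 averaged -0.60 in week 1 kidneys and 1.78 in untreated kidneys. Likewise Oas2 minus Oas3 averaged 0.14 in week 1 kidneys and 2.33 in untreated kidneys. For 6 of the 15 pairs the 2 groups overlapped, among them Oas3 with Oasl2 (exact permutation p = 0.679) and Oas1b with Oas2 (exact permutation p = 0.357).

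Between treated weeks the members moved less than between treated and untreated kidneys. Ordered by mean level, the untreated group was last for every member, and weeks 1 and 7 held the top places for all 6. Neighbouring groups in that order did not differ in the limma test for any member, except that the lowest treated group exceeded untreated. Week 7 came first for Oas1b, Oas2 and Oas3, and week 1 first for Oas1g, Oasl1 and Oasl2. At week 2 all 6 members stood below week 1, with changes between -1.15 for Oasl1 and -0.23 for Oas1b, and 0 passed limma after adjustment (3 at an unadjusted p below 0.05, and 0.04% of all probe sets fell). In the same comparison the erythroid marker Hba-a1 rose by 2.83, and its part was not tested. Oas1g stood at 7.37, 7.60, 8.23, 7.79 and 8.21 at week 2, below every week 1 kidney. The same held for Oas3, Oasl1 and Oasl2, so that 4 of 6 members had every week 2 kidney below every week 1 kidney, against 1.31% of all probe sets. For Oas1b and Oas2 the 2 weeks overlapped.

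From week 2 to week 5 no member passed the limma test between neighbouring weeks. At week 3 all 6 were above week 2, by 0.07 to 0.50, with 0 members passing, 0 at an unadjusted p below 0.05 and 0% of all probe sets rising. At week 5 all 6 were below week 3, with changes between -0.70 for Oasl2 and -0.06 for Oas3, with 0 passing, 1 at an unadjusted p below 0.05 and 0% of all probe sets falling. That one was Oas1b, whose 5 week 5 kidneys all lay below the 5 week 3 kidneys (7.10, 7.32, 7.48, 7.13 and 7.45), as 0.555% of all probe sets did.

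At week 7 the members stood above week 5 once more, by 0.64 to 1.24. Oas1b rose by 0.75 (SE 0.20, limma adjusted p = 0.0162) and Oas2 by 0.76 (SE 0.22, adjusted p = 0.0238), 2 of 6 members against 4.72% of all probe sets. The other 4 did not pass after adjustment and had changes of 1.24 for Oas3 (adjusted p = 0.0535), 1.00 for Oasl2 (adjusted p = 0.0860), 0.85 for Oasl1 (adjusted p = 0.0841) and 0.64 for Oas1g (adjusted p = 0.106). Week 7 kidneys overlapped with week 5 kidneys for every member. The count rested on single kidneys. It was 0 when week 7 replicate 1 was left out and 6 when week 7 replicate 4 was. It was 1 when any of week 5 replicates 2 and 3 or week 7 replicates 2 and 5 was left out, and 4 in the absence of week 5 replicate 1 or of week 7 replicate 3. At week 9 all 6 members were below week 7, by 0.55 to 0.88 on the log2 scale, and 0 passed limma after adjustment (6 at an unadjusted p below 0.05, with 0.0577% of all probe sets falling).

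Week 9 against week 1 is the longest comparison between treated groups. Oasl1 fell by 1.23 (SE 0.31, limma adjusted p = 0.00825), Oasl2 by 1.11 (SE 0.36, adjusted p = 0.0486) and Oas1g by 0.79 (SE 0.25, adjusted p = 0.0380). These were 3 of 6 members, where 4.64% of all probe sets fell. All 5 week 9 kidneys lay below all 5 week 1 kidneys for Oas1g and Oasl1, against 3.87% of all probe sets, and for Oasl2 in 4 of 5. Oas3 had a change of -0.02 (SE 0.41, adjusted p = 0.985), Oas2 of -0.15 (SE 0.22, adjusted p = 0.769) and Oas1b of -0.52 (SE 0.20, adjusted p = 0.111). Oasl1 also passed with each single kidney of either week left out. The count was 1 without any single week 1 kidney and without week 9 replicate 1 or 2, and Oasl2 also failed to pass without week 9 replicate 5 (adjusted p = 0.0607). In the exact two-sided permutation test of pair differences, 9 of 15 pairs had an unadjusted p below 0.05 and 0 passed after adjustment (lowest adjusted p = 0.0630). The 3 pairs whose week 9 and week 1 kidneys did not overlap were Oas3 with Oasl1, Oas2 with Oasl1 and Oas1g with Oas2 (exact permutation p = 0.00794 each, the smallest the design allows). Oas3 minus Oasl1 averaged -0.84 in week 9 kidneys and -2.04 in week 1 kidneys.

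**Figure D3:**
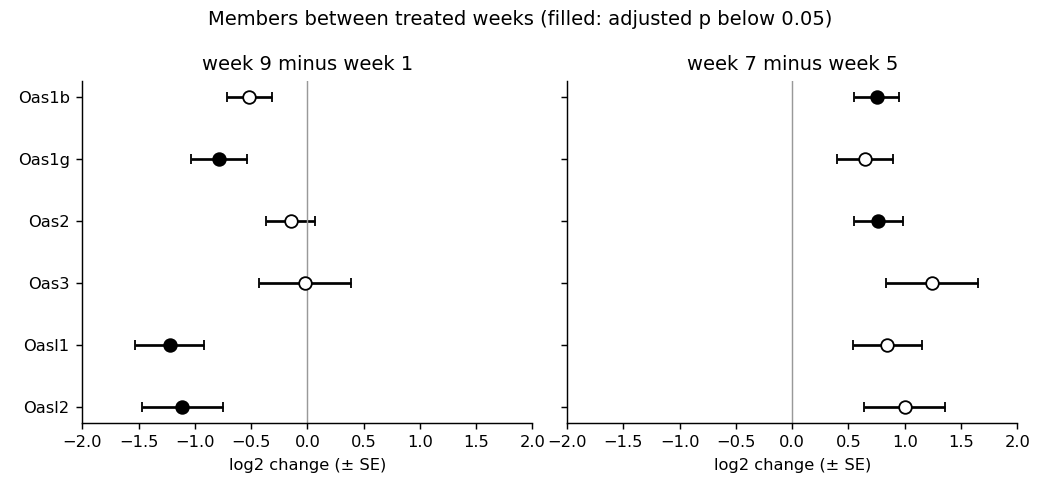
Log2 change (horizontal axis, ± SE from limma) of each member between week 9 and week 1 (left) and between week 7 and week 5 (right), with filled points for an adjusted p below 0.05. Oasl1, Oasl2 and Oas1g lie below 0 on the left with filled points, while Oas3 sits at -0.02.

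The spread between kidneys of a week was larger late than early. The SD of the members was 0.08 to 0.30 at week 1, 0.57 to 1.00 at week 7 and 0.47 to 0.99 at week 9. Since limma pooled the variance of a probe set over all groups, the standard errors given for weeks 7 and 9 may be too small. With only the arrays of the compared weeks in the fit, 1 member, Oasl1, fell between week 9 and week 1, and 0 rose between week 7 and week 5.

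Members deviated together from one kidney to the next. Week 7 replicate 1 was the highest of the 30 treated kidneys for each of the 6 members, and week 9 replicate 2 the lowest for each. In 17 of the 30 treated kidneys all 6 members lay on the same side of their week means, 9 above and 8 below. Over the 15 pairs of members, Pearson's r of these deviations was 0.74 to 0.90 across the 30 kidneys, which is a description because all 6 values of a kidney come from the same array. The summed intensity of 8 macrophage and monocyte markers was 970.8 in week 7 replicate 1, the highest of its week, and 322.0 in week 9 replicate 2, the lowest of its week. That of 3 proximal tubule markers was 555.0 in week 7 replicate 1 and 1624.9 in week 9 replicate 2. Outside these extremes the picture was mixed. Week 9 replicate 1 had the highest macrophage sum of all (1168.6) with 1 of 6 members above its week mean. At week 5 all 5 kidneys had the same order by macrophage sum and by mean deviation of the members. They ran from replicate 1 (476.5 and 0.45) to replicate 2 (200.4 and -0.65). In no other week did the 2 orders match throughout. For single macrophage and monocyte markers, r of the deviations with those of the family mean ran from 0.04 (Csf1r) to 0.75 (Ms4a7). The part of cell composition in the members' levels was not tested.

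**Figure D4:**
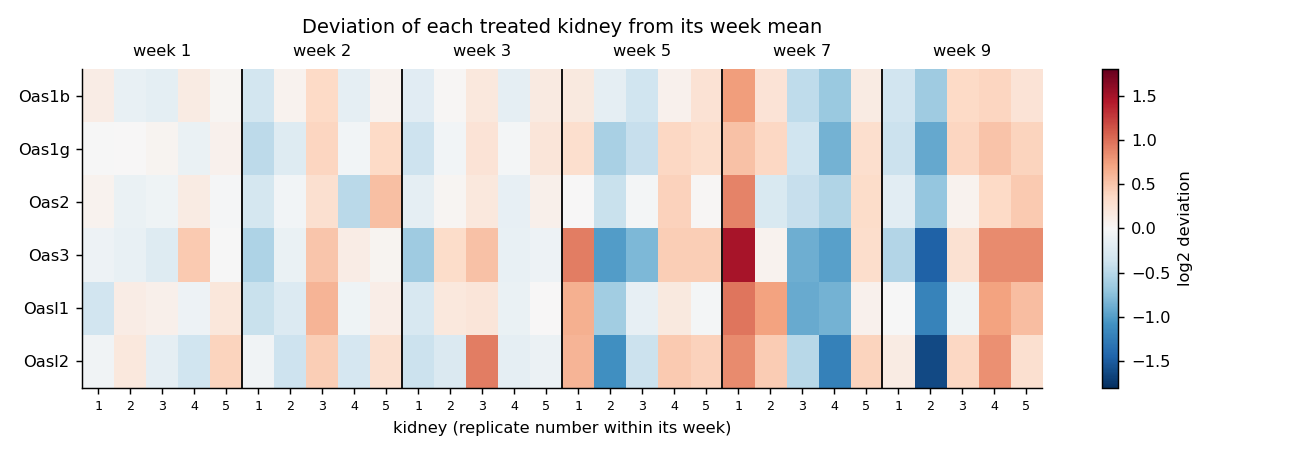
Deviation of each treated kidney from the mean of its week (colour, log2 units) for the 6 members (vertical axis) in 30 kidneys ordered by week and replicate (horizontal axis). Week 7 replicate 1 is above and week 9 replicate 2 below its week mean for all 6 members.

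Markers of some infiltrating cells were higher in the late weeks. Of the 8 macrophage and monocyte markers 1 rose at week 1 (Adgre1, by 1.28), 6 rose at week 7 and 6 at week 9. Their summed intensity was 220.5 to 267.4 at week 1, 346.5 to 970.8 at week 7 and 322.0 to 1168.6 at week 9, against 159.1 to 174.9 in untreated kidneys. The leukocyte marker Ptprc (CD45) had changes of 0.36 at week 1 (adjusted p = 0.553), 2.16 at week 7 and 2.30 at week 9. Between week 9 and week 1, 6 of the 8 macrophage markers rose. Of 5 T cell markers 1 rose at week 7 and 2 at week 9, and of 2 plasma cell markers 1 rose at each of these weeks. None of 3 B cell markers passed at either week, and of 4 neutrophil markers 0 rose at either week and 1 fell at week 9. The B cell markers Cd79b and Ms4a1 and all 4 neutrophil markers were dim, with mean log2 values of 1.87 to 3.20 over the 33 arrays. At such levels a rise could be missed. In whole kidney, more cells that carry a transcript and more transcript per cell cannot be told apart. Tubule markers also moved. Both distal tubule markers fell at weeks 7 and 9, Pvalb among them by 3.06 at week 7 and by 2.83 at week 9. Of 3 proximal tubule markers 2 fell at week 7 and 1 at week 9, and between week 9 and week 1 the distal list had 2 of 2 and the proximal list 2 of 3 falling. The loop of Henle markers Umod and Slc12a1 summed to between 3233.9 and 4555.7 across all 33 kidneys, and 1 of the 2 rose at week 9. The erythroid marker Hba-a1, an alpha-globin, averaged 6.56 at week 1, 9.38 at week 2, 7.41 at week 7 and 9.96 at week 9, against 8.81 in untreated kidneys. It rose by 2.83 (adjusted p = 0.0264) between week 2 and week 1 and by 3.40 (adjusted p = 9.88e-05) between week 9 and week 1, and fell by 2.22 (adjusted p = 0.00726) between week 7 and week 5. The part of these markers in the members' differences was not tested.

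The genes around the synthetases were followed as a list of 27 measured genes, in which 11 rose at each of weeks 1, 2, 3 and 5 and 13 at weeks 7 and 9, with 0 falling at any week. At week 5 the count was 6 without untreated replicate 3. The median change of the list was 0.51 at week 1 and 0.61 at week 9. Some listed genes had several probe sets with their symbol alone, and the brightest stood for each. Akap7 had no probe set with its symbol alone and was not analysed here. Abce1, a factor that splits ribosomes for reuse, had a mean of 10.03 ± 0.10 (SD, n = 5) at week 1, against 9.78 ± 0.15 (SD, n = 3) in untreated kidneys, a change of 0.25 (adjusted p = 0.279). It rose at week 7 by 0.53 (adjusted p = 6.75e-04) and at week 9 by 0.34 (adjusted p = 0.0267). These values are those of the brightest of 3 Abce1 probe sets. Another, with a mean log2 value of 8.67, had a change of 0.15 at week 7 (limma adjusted p = 0.441). Pde12, the 2-5A phosphodiesterase, had changes between -0.18 and 0.15 over the 6 weeks, with 0 passing limma at any week (0 at an unadjusted p below 0.05). The probe set that stood for Pde12 was dim, with a mean log2 value of 3.52 over the 33 arrays, so a small change could be missed.

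Of the 5 other Oas1 paralogs measured, 0 rose at week 1 (at an unadjusted p below 0.05, Oas1c was higher and Oas1e lower) and 1 at week 9, Oas1c, by 0.62 (adjusted p = 0.0452). Oas1c had changes of 0.79 at week 1 (adjusted p = 0.0508) and 0.75 at week 5 (adjusted p = 0.0432). The probe sets of Oas1d, Oas1f and Oas1h were dim, at mean log2 values of 3.04, 1.54 and 3.22 over the 33 arrays, where small changes are hard to see.

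Upstream, 2 of 6 receptor and transcription complex genes rose at week 1, Stat2 by 2.53 (adjusted p = 1.07e-07) and Irf9 by 1.70 (adjusted p = 2.53e-05). The receptor chains had changes of -0.07 for Ifnar1 (adjusted p = 0.871) and 0.68 for Ifnar2 (adjusted p = 0.0999). Among the other interferon regulatory factors and feedback genes, Irf7, which amplifies interferon production, averaged 8.38 ± 0.17 (SD, n = 5) at week 1, against 4.02 ± 0.10 (SD, n = 3) in untreated kidneys. It rose by 4.36 (adjusted p = 5.21e-09) at week 1 and by 2.44 (adjusted p = 1.10e-04) at week 9. Usp18, a brake on the interferon receptor, rose by 3.86 (adjusted p = 3.92e-09) at week 1 and by 2.48 (adjusted p = 1.53e-05) at week 9. Both fell between week 9 and week 1, Irf7 by 1.92 (adjusted p = 3.82e-04) and Usp18 by 1.39 (adjusted p = 0.00244).

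Of 8 other genes listed for the binding and sensing of double-stranded RNA, among them an adaptor, 7 rose at week 1 and 7 at week 9. Ifih1, the sensor MDA5, rose by 2.64 (adjusted p = 1.34e-08) at week 1 and by 1.70 (adjusted p = 3.35e-05) at week 9. Dhx58, the sensor-related helicase LGP2, rose by 2.51 (adjusted p = 3.79e-07) at week 1 and by 2.01 (adjusted p = 2.16e-05) at week 9. Its other probe sets were dim, with mean log2 values of 2.76 and 1.29. They had changes of 0.38 and 0.02 at week 1 (limma adjusted p = 0.483 and 0.960). The exception at both weeks was Mavs, the adaptor of these sensors, with changes of 0.06 (adjusted p = 0.907) and -0.17 (adjusted p = 0.494).

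**Figure D5:**
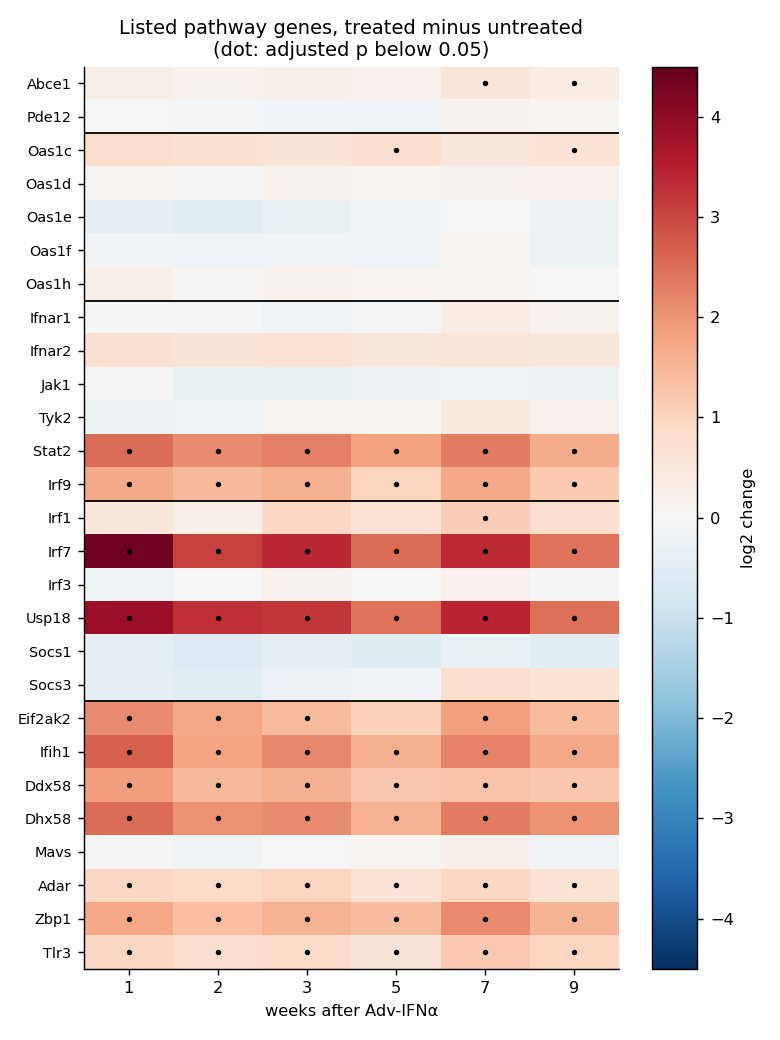
Log2 change against untreated kidneys (colour) of the 27 listed pathway genes (vertical axis, lines between the 5 lists) by week after Adv-IFNα (horizontal axis), with a dot for an adjusted p below 0.05. Irf7 at week 1, with 4.36, has the darkest cell, and Mavs has no dot at any week.

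The genes whose levels ran most like the family were sought by Pearson's r with the mean of the 6 members, each centred on its own mean, over the 33 arrays. They were Ly6e (r = 0.979), Ifitm3 (r = 0.976), Rtp4 (r = 0.970), Xaf1 (r = 0.966), Rnf213 (r = 0.964) and Gbp3 (r = 0.960). Ly6e is a surface antigen of the Ly6 family, and Ifitm3 restricts the entry of viruses. Rnf213 is a ubiquitin ligase and Gbp3 a guanylate-binding GTPase. Over the 30 treated kidneys alone r was 0.926 for Ly6e, 0.935 for Ifitm3, 0.894 for Rtp4, 0.930 for Xaf1, 0.929 for Rnf213 and 0.878 for Gbp3. These values describe arrays that share normalization and the treated and untreated groups, and carry no test. Ly6e rose by 2.59 (adjusted p = 5.21e-09) at week 1 and by 2.36 (adjusted p = 1.58e-07) at week 9, and between these weeks its change was -0.24 (adjusted p = 0.562). Xaf1, in contrast to Ly6e, fell between week 9 and week 1 by 1.06 (adjusted p = 0.0214), although the difference between the 2 genes was not tested.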

How the data were processed

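Kidney RNA was measured on 33 Affymetrix HT-MG-430 PM arrays of 1 colour, each taken as 1 mouse. The authors deposited RMA values on a log2 scale, a base taken from their range of 0.585 to 13.9. The submitters' processing notes list RMA and Partek. RMA makes array distributions equal, and array medians lay between 3.97 and 4.10. Arrays have no read depth, and precision is limited by their number. Without 104 control probe sets the table held 45037, of which 28898 had 1 gene symbol. A linear model with 7 group means was fitted over all 33 arrays with limma 3.58.1 in R 4.3.3, and p-values were adjusted by Benjamini-Hochberg over all of them in each contrast, at a threshold of 0.05. Pair differences were tested with SciPy 1.17.1 by exact permutation. On simulated data for week 9 against untreated (45037 probe sets, 50 changed per fold), the share recovered was 30% for a true 1.5-fold change, 92% for 2-fold and 100% for 4-fold, and 13 calls were false. The simulation gave a probe set the same spread in all groups. In the real kidneys the members spread more widely at week 9 than at week 1, so these figures may be too favourable.

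The text names all members, Abce1 and Pde12, the 4 listed pathway genes with the largest passing change at week 1 and at week 9, and the 6 genes most like the family. Irf9, the receptor chains, Mavs, the Oas1 paralogs and the cell markers named were chosen after their values were seen. Members, lists and tests were chosen with earlier results of these data known. Promoters came from RefSeq (GRCm38.p6). No genome build is given for the arrays in the sources used here. Alternatives were another choice of arrays in the fit, a 2-fold threshold, array weights, a replicate block, median centring, no dim probe sets, averaging all probe sets of a gene, the beta-actin ratio as a covariate, a trended robust variance and leaving out each array.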

Additional observations from a re-analysis of the deposited data

Results flagged for a closer look

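Of 36 groups of 5 kidneys tested with Dixon's test, 2 held a kidney far from the others, both for Oasl2. Chance alone flags about 1 in 20 such groups. In week 3 replicate 3 Oasl2 stood at 8.11, above the rest of its week, with a gap of 0.787 of the whole range. In week 9 replicate 2 it stood at 5.11, below the rest, with a gap of 0.728 of the range. The same kidneys were the highest (week 3 replicate 3) and the lowest (week 9 replicate 2) of their weeks for all 6 members. Without week 9 replicate 2 the change of Oasl2 between week 9 and week 1 was -0.70 (limma adjusted p = 0.190).

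The change against untreated differed between weeks for 5 members, by the direct test of one week against the other. Between week 7 and week 5 these were Oas1b, with 0.75, and Oas2, with 0.76. Between week 9 and week 1 they were Oas1g, with -0.79, Oasl1, with -1.23, and Oasl2, with -1.11. The cause of these differences was not tested.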

How the results depend on the processing

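All 6 members rose against untreated at every week under each of the alternatives, 612 member and week results in all, with adjusted p up to 0.00763 and changes of at least 1.36. The calls between treated weeks were less firm. The members rising between week 7 and week 5, 2 in the report, numbered 0 with only the arrays of the 2 weeks, 0 with a 2-fold threshold and 4 with array weights, and 0 to 6 with single kidneys left out. Those falling between week 9 and week 1, 3 in the report, numbered 1 with only the arrays of the 2 weeks and 1 to 3 with single kidneys left out. Oasl1 alone fell between week 2 and week 1, 1 member, with only those arrays in the fit (adjusted p = 0.0164) and 1 with array weights as well (adjusted p = 0.0356). The fall of Oasl2 between week 9 and week 1 did not pass after median centring (limma adjusted p = 0.0505) or with averaged probe sets (0.0517). Nor did it pass with the beta-actin ratio (0.0593) or with a trended robust variance (0.0802). Since each member has 1 probe set, averaging left the members' values as they were and changed only other features in the fit. The pathway genes rising at week 5, 11 in the report, numbered 6 with only the arrays of the 2 groups, 7 with array weights, 7 with the beta-actin ratio and 6 to 10 with single kidneys left out, and those at week 2 numbered 7 with the beta-actin ratio.

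Changes near 0 turned sign. For Oas3 between week 9 and week 1 the change was 0.069 with array weights, 0.096 without week 1 replicate 4, 0.11 without week 9 replicate 1 and 0.34 without week 9 replicate 2, in a range of -0.24 to 0.34 with single kidneys left out. Oas2 in that comparison had 0.026 without week 9 replicate 2 (range -0.27 to 0.026). Oas3 between week 5 and week 3 had 0.025 and 0.076 without week 3 replicate 2 or 3 and 0.19 and 0.15 without week 5 replicate 2 or 3 (range -0.29 to 0.19), and Oas1b between week 3 and week 2 had -0.0094 without week 2 replicate 1 (range -0.0094 to 0.16). The cause was not tested. Replicate numbers did not pair the kidneys, since deviations of kidneys that share a number in other weeks correlated at -0.0012 on average and 6 of 30 treated arrays correlated best with their own number. With the replicate number as a block 6 members rose at week 1 and at week 5, where Oas1b had the change 1.43 (adjusted p = 0.00104).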
